A study of Homo sapiens with 4 samples.

Results

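The genes described here are 10 targets of the transcription factor NRF2 that encode aldo-keto reductases and enzymes of redox defence, namely *AKR1C1*, *AKR1C2*, *AKR1C3*, *AKR1B10*, *NQO1*, *GCLM*, *GCLC*, *TXNRD1*, *SRXN1* and *HMOX1*. They were taken by symbol from a table of 16811 genes, and each of the 10 symbols had a row. Poly(A)-selected RNA of MCF12A cells, a non-tumorigenic line of human mammary epithelium that the labels file as a breast cancer cell line, was sequenced in 4 libraries. The wild-type group held 2 biological replicates, and so did the edited group, labelled C1orf132 KO. In the edited cells, CRISPR/Cas9 and paired guides had removed the p2 promoter of *C1orf132*, the lncRNA host gene of miR-29b2 and miR-29c. All cells had grown in medium with horse serum, EGF, hydrocortisone, cholera toxin and insulin. The edited cells came from sorted single cells grown into colonies, and the sources used here do not say which colony, or how many, the 2 libraries were made from. A difference carried by a clone and one that goes with the deletion therefore cannot be told apart. The RNA of *C1orf132* was not analysed here, and the groups rest on their labels.

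NRF2, the product of *NFE2L2*, is kept low in resting cells because KEAP1 hands it to a CUL3 ubiquitin ligase for degradation. Oxidants and electrophiles modify KEAP1, NRF2 then accumulates, pairs with a small MAF protein and binds antioxidant response elements near its target genes. The targets make glutathione, reduce thioredoxin and peroxiredoxins, detoxify quinones, break down heme and, through the aldo-keto reductases, reduce aldehydes, ketones and steroids with NADPH.

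The deposited values were normalized expression values without a stated unit, with library totals between 1444644 and 1655437. Differences were tested with limma on log2(value + 1) in the 9590 genes with a mean of at least 10, and a gene was called at a Benjamini-Hochberg adjusted p under 0.05. Of these genes 680 were called, which is 7.09%, with 2.89% higher in edited cells and 4.2% lower. The same fit over all 16811 rows, used for genes under that mean, called 4.73%. With 2 libraries a group, both edited values lay above both wild-type values in 38.3% of tested genes and below both in 26.9%, so a gap between the groups is common in this table. Markers of cell identity moved as well. Of 6 basal mammary markers 2 were lower in edited cells (*KRT17*, *TP63*) and 0 higher, and their summed values were 4623 and 6553 in edited against 11840 and 20595 in wild-type cells. Of 6 general epithelial markers, 4 were lower (*CDH1*, *EPCAM*, *ESRP1*, *GRHL2*) and *KRT8* was higher. Their summed values, 663.3 and 669.4 in edited against 964.7 and 662.9 in wild-type cells, overlapped. The 4 lower genes passed the mean filter only through their wild-type values, with edited means of 2.72, 7.61, 3.49 and 0.0917 in that order. Of the 5 mesenchymal markers in the table, *VIM*, *CDH2* and *ZEB1* were higher, *COL1A1* was lower and *FN1* was not called. *CDH2* and *ZEB1* lay under the mean filter, with wild-type means of 0.264 and 0.63, and were called in the fit over all rows. *COL1A1*, with an edited mean of 4.38, passed that filter only through its wild-type values. The summed values were 1009 and 4971 in edited against 918.7 and 536.8 in wild-type cells. *FN1*, with overlapping groups at 170.8 and 3735 against 644.9 and 313.9, made up most of the 4971. None of the 3 blood, 3 endothelial and 2 hepatocyte markers was listed in the table. The part of these shifts in the results that follow was not tested, and in bulk RNA fewer cells of a type and less RNA per cell cannot be told apart.

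Of the 10 genes, 2 were called higher in edited cells (*TXNRD1*, *NQO1*), 0 were called lower and 8 did not pass the test. The mean filter was passed by 9 of them, all except *HMOX1*, so 22.2% of the tested genes of the set were called. Over all tested genes this share was 7.09%. Their median log2 fold change was 0.05, and that of all tested genes was 0.09. At an unadjusted p under 0.05 there were 4, which adds *GCLC* and *AKR1B10*, and 32.3% of all tested genes were under that level. The values of both groups overlapped for 6 genes, were higher in both edited libraries for 3 and lower in both for 1. Of all tested genes, 38.3% were higher in both edited libraries and 26.9% lower in both. The genes did not move as a block: the fitted log2 fold changes ran from -3.34 for *AKR1B10* to 1.71 for *TXNRD1*.

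**Figure D1:**
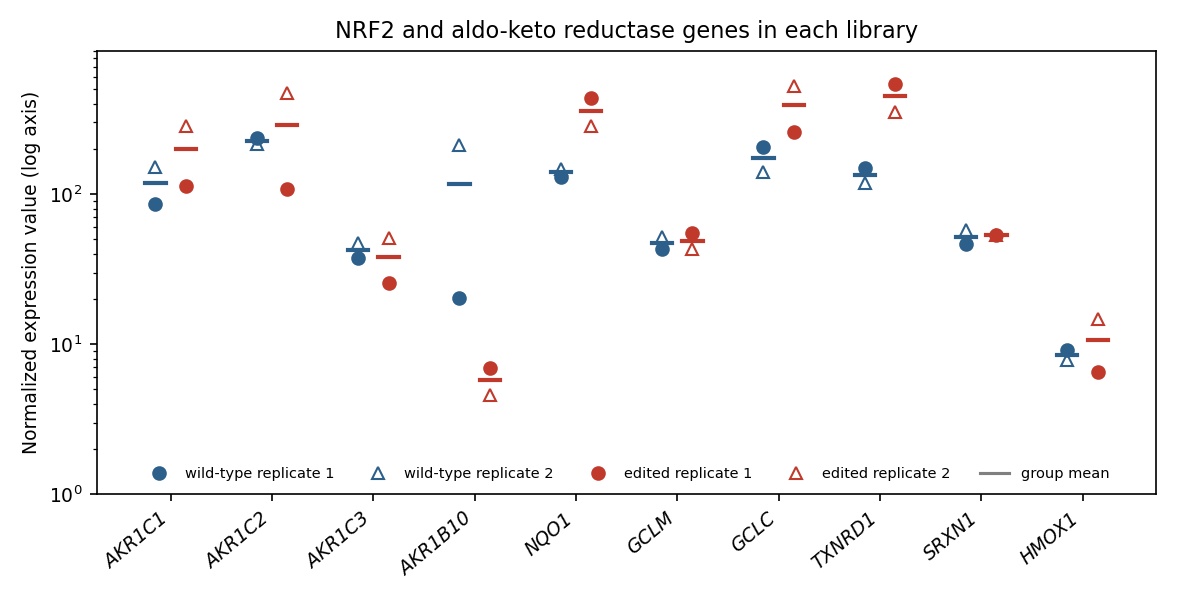
Normalized expression value (log axis) of the 10 genes in each of the 4 libraries, with blue symbols for wild-type and red symbols for edited cells, filled circles for replicate 1, open triangles for replicate 2 and short lines for group means. *NQO1*, *GCLC* and *TXNRD1* lie higher in both edited libraries and *AKR1B10* lower in both, while the groups overlap for the other 6 genes.

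**Figure D2:**
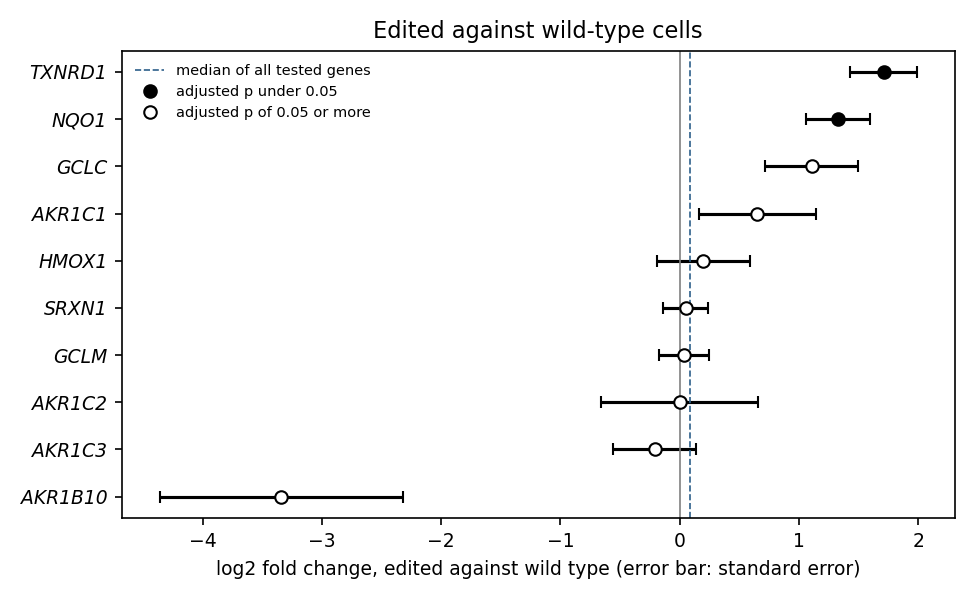
Log2 fold change of each gene in edited against wild-type cells on the log2(value + 1) scale, with its standard error as the error bar. Filled points mark the 2 genes with an adjusted p under 0.05, *TXNRD1* at 1.71 and *NQO1* at 1.33, and the dashed line marks the median of all tested genes, 0.09.

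Among the genes of the thioredoxin system, *TXNRD1* rose in edited cells. It encodes the cytosolic selenoenzyme that uses NADPH to keep thioredoxin reduced, and lies on chr12:104215779-104350307 (RefSeq, GRCh38.p14). Its values, with replicate 1 named before replicate 2 here and for each gene that follows, were 542.1 and 353.5 in edited cells, against 149.8 and 119.0 in wild-type cells. Both edited libraries lay far above both wild-type libraries. The means were 447.8 ± 133.3 and 134.4 ± 21.81 (SD, n = 2 each), a 3.33-fold difference, and limma gave a log2 fold change of 1.71 (SE 0.28) with an adjusted p of 0.0345. This log2 fold change was higher than that of 99.1% of tested genes. Where a library is left out, here and for the genes that follow, its group keeps 1 library, the spread is that of the other group's pair with limma's moderation over all genes, and the lone library is assumed to vary in the same way. The call was lost when wild-type replicate 1 was left out (limma adjusted p = 0.0928) and when wild-type replicate 2 was left out (adjusted p = 0.192), and with the replicate number as a block the adjusted p was 0.0547.

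*SRXN1*, sulfiredoxin, which restores over-oxidized peroxiredoxins, did not follow *TXNRD1*. On chr20:646615-653200, it had values of 52.97 and 53.34 in edited and 46.26 and 57.27 in wild-type cells. The edited libraries, which were nearly equal, fell between the wild-type ones. The means were 53.16 ± 0.263 and 51.77 ± 7.79 (SD, n = 2 each) and the log2 fold change was 0.05 (SE 0.19, limma adjusted p = 0.889). With library totals set equal the same fold change was -0.07, so its sign depends on the scaling.

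*NQO1*, the quinone reductase that is a standard readout of NRF2 activity, was the other gene that rose. It lies on chr16:69709401-69726560. Values were 434.9 and 284.4 in the edited libraries and 130.6 and 147.9 in the wild-type libraries. The lower edited value was still well above the higher wild-type value. The means, 359.6 ± 106.5 and 139.3 ± 12.2 (SD, n = 2 each), differed 2.58-fold, with a log2 fold change of 1.33 (SE 0.27) and a limma adjusted p of 0.0471, higher than the fold change of 97.9% of tested genes. This adjusted p lies close to the threshold. It was 0.0515 with equal library totals, 0.0797 with the replicate block and 0.104 without edited replicate 1, and leaving out wild-type replicate 1 or wild-type replicate 2 gave 0.131 or 0.205, while the direction was the same in each.

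Glutamate-cysteine ligase catalyses the rate-limiting step of glutathione synthesis from a catalytic subunit, GCLC, and a modifier subunit, GCLM, and the genes of these subunits differed in their values. *GCLC*, on chr6:53497341-53545101, was at 259.1 and 525.6 in edited and 206.3 and 140.6 in wild-type cells. Both edited libraries were higher than both wild-type libraries, but edited replicate 2 was 2.03-fold above edited replicate 1. The means were 392.3 ± 188.4 and 173.4 ± 46.51 (SD, n = 2 each), and the 2.26-fold difference did not pass the test (log2 fold change 1.11, SE 0.39, limma adjusted p = 0.123). With edited replicate 2 as the only edited library, the higher of the pair, the log2 fold change was 1.62 (limma adjusted p = 0.0405), with the spread taken from the wild-type pair and not from the 2.03-fold gap between the edited libraries. *GCLM*, on chr1:93885199-93909430, was at 55.16 and 42.77 in edited and 43.32 and 51.69 in wild-type cells. The groups overlapped, and each held a higher and a lower library of about the same values. The log2 fold change was 0.04 (SE 0.21, limma adjusted p = 0.919) and became -0.08 with equal library totals. The difference between the fold changes of both subunits was not tested.

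*HMOX1*, heme oxygenase 1, which opens the heme ring and is induced by heme and many stresses, was low in each library. On chr22:35381096-35394207, its values were 6.476 and 14.75 in edited and 9.092 and 7.825 in wild-type cells. The edited libraries were the lowest and the highest of the 4. Its mean of 9.54 over the libraries was just under the filter, and the fit over all rows gave a log2 fold change of 0.20 (SE 0.39, limma adjusted p = 0.774).

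The *AKR1C* genes lie side by side on chromosome 10, *AKR1C1* at chr10:4963415-4983283, *AKR1C2* at chr10:4987775-5018000 and *AKR1C3* at chr10:5048781-5107686. They encode hydroxysteroid dehydrogenases that also reduce reactive carbonyls, with AKR1C3 known for making testosterone from androstenedione. Their coding sequences are so alike that reads of one can fit another. The first 75 coding bases, one read length, are shown from the GENCODE 44 transcripts to let this be seen, with capitals at the bases that differ from *AKR1C1*.
AKR1C1: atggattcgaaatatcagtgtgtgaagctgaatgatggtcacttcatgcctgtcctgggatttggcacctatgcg
AKR1C2: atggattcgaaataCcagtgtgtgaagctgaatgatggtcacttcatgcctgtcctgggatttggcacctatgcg
AKR1C3: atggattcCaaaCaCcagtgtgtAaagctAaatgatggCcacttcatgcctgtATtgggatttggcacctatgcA
In this stretch *AKR1C2* differs from *AKR1C1* at 1 base and *AKR1C3* at 9.

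Over the 969 coding bases of each, *AKR1C1* and *AKR1C2* were identical at 98.0% of positions, and 299 of the 895 possible 75-base windows of *AKR1C1* (33.4%) occurred unchanged in *AKR1C2*. *AKR1C3* shared 69 windows with *AKR1C1* and 119 with *AKR1C2*. How such reads were shared out between the genes is not given in the sources used here, so the split among the 3 genes is uncertain, and their summed value is given as well.

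*AKR1C1* had values of 113.5 and 282.4 in edited and 86.17 and 150.8 in wild-type cells. Edited replicate 1 lay between the wild-type libraries and edited replicate 2 above both. The means, 198.0 ± 119.4 and 118.5 ± 45.67 (SD, n = 2 each), gave a log2 fold change of 0.65 (SE 0.49) that did not pass the test (limma adjusted p = 0.399).

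*AKR1C2* was at 107.4 and 472.8 in edited and 235.0 and 216.6 in wild-type cells. The edited libraries were the lowest and the highest of the 4, and the wild-type libraries lay close together between them. The 4.40-fold gap between the edited replicates was wider than in 99.1% of tested genes. The log2 fold change was 0.00 (SE 0.66, limma adjusted p = 0.9999), while the ratio of the means was 1.29, since the mean follows the high library. Its value turned on which edited library was used. Without edited replicate 2 the log2 fold change was -1.06 (limma adjusted p = 0.0446), and without edited replicate 1 it was 1.06. Both values take their spread from the wild-type pair, which lay close together, and leave out the gap between the edited libraries.

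*AKR1C3* had values of 25.47 and 50.97 in edited and 37.25 and 47.01 in wild-type cells. Again the edited libraries lay on either side of the wild-type ones. The log2 fold change was -0.21 (SE 0.35, limma adjusted p = 0.707).

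The summed value of the 3 *AKR1C* genes was 246.4 and 806.2 in edited and 358.4 and 414.3 in wild-type cells. The edited sums were the lowest and the highest, so the groups overlapped. The ratio of the means was 1.36 (526.3 ± 395.8 against 386.4 ± 39.55, SD, n = 2 each), with an exact two-sided permutation p of 1.0, where 2 against 2 libraries cannot give less than 0.333. The ratio was 2.09 once edited replicate 1 was left out and 0.638 once edited replicate 2 was left out. *AKR1C2* made up 43.6% and 58.6% of the sum in edited and 65.6% and 52.3% in wild-type cells. *AKR1C1* made up 46.1% and 35.03% in edited and 24.0% and 36.4% in wild-type cells. These shares overlapped between the groups, and *AKR1C3* never exceeded 11.4%.

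The neighbours of the *AKR1C* genes did not pass the test either. Within 2 Mb, 15 other genes were in the table, 10 of them passed the mean filter, and limma called 0 (1 at an unadjusted p under 0.05). With 7.09% of all tested genes called and 32.3% under that level, 0 calls among 10 genes is near the share. The fold changes of the 10 tested neighbours were above 0 for 7 and below 0 for 3, with a median of 0.20. The 5 neighbours under the mean filter were not called either in the fit over all rows (3 at an unadjusted p under 0.05, limma), with 4 below 0 and 1 above. That fit called 4.73% of all rows. The tested neighbour with the unadjusted p was *PITRM1*, a mitochondrial peptidase, at 162.2 and 151.6 in edited and 92.01 and 92.47 in wild-type cells (limma adjusted p = 0.0637). Among the others, *NET1*, a RhoA exchange factor, was at 77.19 and 114.1 in edited and 205.6 and 111.2 in wild-type cells, and *KLF6*, a zinc-finger transcription factor, was at 51.76 and 80.81 against 84.32 and 54.32. The remaining tested neighbours, *PFKP*, *ASB13*, *TASOR2*, *GDI2*, *FBH1*, *RBM17* and *PFKFB3*, had log2 fold changes between -0.07 and 0.58.

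*AKR1B10*, a retinal and aldehyde reductase on chr7:134527567-134541412, showed the widest spread of the 10 genes. Its values were 6.954 and 4.62 in edited and 20.37 and 212.6 in wild-type cells. Both edited libraries were lower than both wild-type libraries, but wild-type replicate 2 stood 10.4-fold above wild-type replicate 1, a gap wider than in 99.9% of tested genes. The wild-type mean of 116.5 ± 135.9 was 20.1 times the edited mean of 5.79 ± 1.65 (SD, n = 2 each). The log2 fold change of -3.34 (SE 1.02) did not pass the test (limma adjusted p = 0.0928). Without wild-type replicate 1 it was -5.00 (limma adjusted p = 0.0365), a value that rests on the single high wild-type library and on the spread of the edited pair alone. Without wild-type replicate 2 it was -1.68 and did not pass.

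The closest paralogue of *AKR1B10*, *AKR1B15*, was also lower in both edited than in both wild-type libraries and highest in wild-type replicate 2, with 0.9088 and 1.208 in edited and 4.67 and 21.32 in wild-type cells (log2 fold change -2.45, limma adjusted p = 0.0864 over all rows). These genes share 72 of the 874 windows of 75 bases in the *AKR1B10* coding sequence (8.24%), and whether reads crossed between them was not tested. *AKR1B1*, aldose reductase, shares no such window with *AKR1B10* and was at 458.5 and 789.7 in edited and 479.1 and 410.6 in wild-type cells, with overlapping groups (log2 fold change 0.44, limma adjusted p = 0.367). *AKR1A1*, aldehyde reductase, was at 288.5 and 271.0 against 431.8 and 364.9 and did not pass (limma adjusted p = 0.161). Of the 13 aldo-keto reductases and relatives with a row in the table, 8 were tested and limma called 0, with a median log2 fold change of 0.10. At an unadjusted p under 0.05 (limma) there was 1, *AKR1B10*. Over all tested genes 7.09% were called and 32.3% were under that level. *AKR7A2*, *KCNAB2* and *KCNAB3* had fold changes of 0.20, 0.42 and 0.05, *AKR7A3* of 0.59, *AKR1E2* of -0.53 and *KCNAB1* of -0.90, none of them called.

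The widest gaps between libraries of one group were those of *AKR1C2* in edited and *AKR1B10* in wild-type cells. The edited replicates differed more than 2-fold for 5 of the 10 genes (*AKR1C1*, *AKR1C2*, *AKR1C3*, *GCLC*, *HMOX1*), in each case with replicate 2 higher, and the wild-type replicates for 1 (*AKR1B10*). The narrowest of the 5 edited gaps, 2.002-fold for *AKR1C3*, was wider than in 95.0% of tested genes. *HMOX1* lay under the mean filter. The *AKR1C* genes can share reads, so they are not separate observations. Edited replicate 2 was higher than replicate 1 for 6 genes and lower for 4. The genes that were called, *TXNRD1* and *NQO1*, were lower in edited replicate 2 than in replicate 1, by 1.53-fold each. Edited replicate 2 thus did not hold the higher value of every gene. *SOD2*, manganese superoxide dismutase, which is no member of the set, differed far more between the edited replicates, at 197.7 and 3582, with wild-type values of 2277 and 1529.

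**Figure D3:**
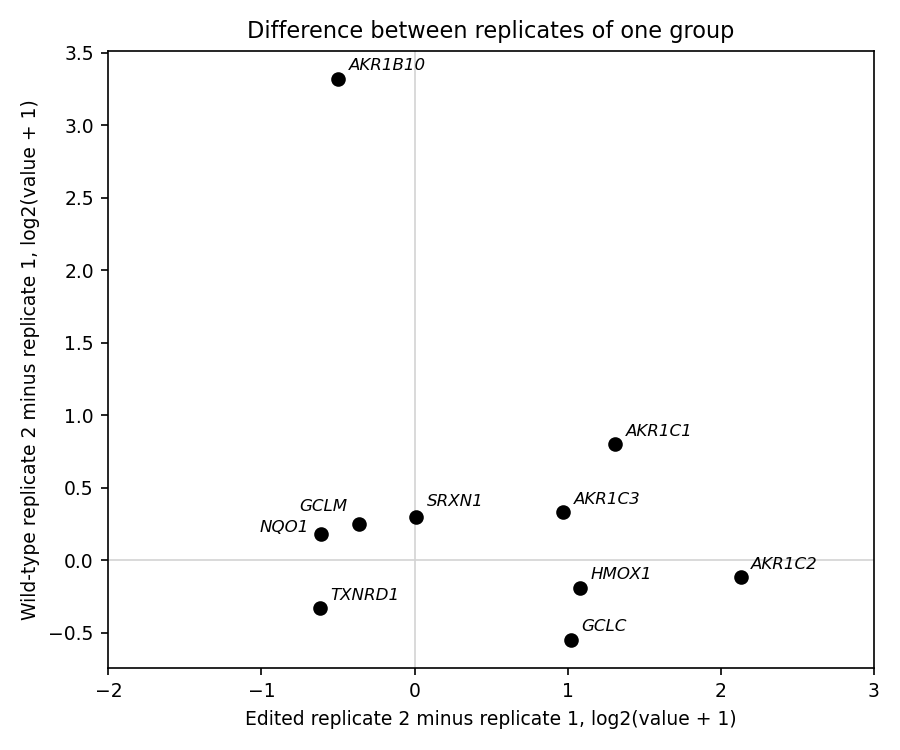
Difference between replicate 2 and replicate 1 on the log2(value + 1) scale for each of the 10 genes, in edited cells on the horizontal and in wild-type cells on the vertical axis. *AKR1C2* stands apart in the edited cells at 2.13 and *AKR1B10* in the wild-type cells at 3.32, while *SRXN1* lies near 0 in edited cells at 0.01.

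Promoters were searched for the core letters of the antioxidant response element, since these are where NRF2 binds. RefSeq promoters (GRCh38.p14, 250 bases before to 50 after a start) were given for 8 of the genes, with 10 promoters in all, and *AKR1B10* and *HMOX1* had no entry. TGACNNNGC, searched on both strands, was found in 3 of the 10, belonging to *GCLM* and *TXNRD1*, and in 13.3% of all 35116 promoters. None of the matches begins with the AP-1 letters TGACTCA. The matches are shown with 10 bases on either side, on the strand of the gene and with the core in capitals, because one of these genes was called and the other was not.
GCLM, chr1:93909446-93909474, minus strand: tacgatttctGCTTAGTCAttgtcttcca
TXNRD1, chr12:104215670-104215698, plus strand: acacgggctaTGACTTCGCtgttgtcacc
TXNRD1, chr12:104215761-104215789, plus strand: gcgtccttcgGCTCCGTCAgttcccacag
TXNRD1, second start, chr12:104286920-104286948, plus strand: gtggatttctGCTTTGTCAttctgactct
The core reads on the gene's own strand in the first *TXNRD1* match and on the opposite strand in the other matches, including that of *GCLM*. The promoter of *NQO1*, which rose, held no match in this window, which says only that these letters are not there.

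The regulators of the pathway did not pass the test. Of the 11 KEAP1 and NRF2 regulators 10 were tested and limma called 0 (2 at an unadjusted p under 0.05), with a median log2 fold change of -0.03. Over all tested genes 7.09% were called and 32.3% were under that level, so 0 calls among 10 genes is near that share. *NFE2L2*, the NRF2 gene, was at 172.9 and 223.7 in edited and 248.3 and 232.6 in wild-type cells (log2 fold change -0.29, SE 0.22, limma adjusted p = 0.402). Both edited libraries were below both wild-type libraries, by less than the test could tell from the spread. *KEAP1* was at 122.8 and 132.5 against 128.0 and 122.9, with overlapping groups (log2 fold change 0.02, limma adjusted p = 0.94). These are RNA levels, and NRF2 is controlled largely as a protein, which was not measured.

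The ligase genes *CUL3* and *RBX1* had log2 fold changes of 0.49 and 0.53 (limma adjusted p = 0.179 and 0.124). *SQSTM1*, p62, which draws KEAP1 away from NRF2 and is itself a target, was at 385.8 and 965.7 in edited and 619.2 and 336.0 in wild-type cells. *BACH1*, the repressor that holds *HMOX1* down, was at 9.16 and 34.05 against 21.61 and 16.81. For both, the edited libraries spread wider than the wild-type ones and the groups overlapped. The related factors *NFE2L1* and *NFE2L3* had log2 fold changes of -0.84 (limma adjusted p = 0.0781) and -0.19, and the small MAF genes *MAFF*, *MAFG* and *MAFK* of 0.46, 0.34 and -0.34, none of them called.

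Outside the 10 genes, the other listed pathway genes moved in both directions. Of 111 such genes in the table, 90 were tested, 2 were called higher (2.22%) and 6 lower (6.67%), beside 2.89% and 4.2% of all tested genes, and their median log2 fold change was 0.20 against 0.09. Of the 90 tested genes, 40 were higher in both edited libraries (44.4%) and 24 lower in both (26.7%), beside 38.3% and 26.9% of all tested genes. The lists were chosen with earlier results of these data known. Leaving out either wild-type library lowered the number of calls both among these genes and over all tested genes.

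TXNRD1, NQO1 and the aldo-keto reductases all draw on NADPH. In the list for its supply, log2 fold changes were above 0 in 6 of 6, with a median of 0.40, and 1 was called. The list joins *PGD*, *ME1* and *IDH1*, whose enzymes make NADPH, with *PGLS*, *TKT* and *TALDO1*, whose enzymes do not make it themselves. The median of all tested genes was also above 0, at 0.09. At an unadjusted p under 0.05 (limma) there were 2 of the 6, beside 32.3% of all tested genes. *PGD*, 6-phosphogluconate dehydrogenase of the pentose phosphate pathway, was at 502.7 and 469.9 in edited and 214.7 and 236.4 in wild-type cells (log2 fold change 1.11, SE 0.20, limma adjusted p = 0.0397). The edited libraries lay close together and well above the wild-type ones. *TKT* and *TALDO1*, also of that pathway, had log2 fold changes of 0.30 and 0.63 and were not called (limma adjusted p = 0.379 and 0.113).

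In the thioredoxin and peroxiredoxin list 13 of 14 genes had a log2 fold change above 0, with a median of 0.52, and besides *TXNRD1* 1 rose and 1 fell. At an unadjusted p under 0.05 (limma) there were 8 of the 14, beside 32.3% of all tested genes. *PRDX2*, a cytosolic peroxiredoxin, was at 619.4 and 563.6 in edited and 289.4 and 246.7 in wild-type cells (log2 fold change 1.14, SE 0.21, limma adjusted p = 0.0407). *TXNIP*, the inhibitor of thioredoxin, was at 180.4 and 311.8 in edited and 757.1 and 1333 in wild-type cells (log2 fold change -2.08, SE 0.39, limma adjusted p = 0.042). Neither gene's groups overlapped. *PRDX1* and *TXN* itself were not called, with log2 fold changes of 0.77 and 0.21.

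Of 18 tested glutathione genes other than *GCLC* and *GCLM*, 0 were called higher and 2 lower by limma (8 at an unadjusted p under 0.05), with a median of 0.40. Of all tested genes 2.89% were called higher, 4.2% lower and 32.3% were under that level. *GPX2*, the epithelial glutathione peroxidase and an NRF2 target, was low in edited cells, at 0.2682 and 0.4785, against 13.41 and 30.93 in wild-type cells (log2 fold change -3.97, SE 0.51, limma adjusted p = 0.0199). Its mean over the libraries, 11.27, passed the filter only through its wild-type values. *GGT1*, which splits extracellular glutathione, was at 12.16 and 12.82 against 38.12 and 29.82 (log2 fold change -1.36, limma adjusted p = 0.0251). Both fell without overlap between the groups. *SLC7A11*, the cystine transporter and an NRF2 target, was low, at 3.777 and 6.346 in edited and 0.8759 and 1.063 in wild-type cells (log2 fold change 1.59, limma adjusted p = 0.0521 over all rows). *GSTP1* and *SLC3A2*, the most abundant genes of the list, had log2 fold changes of -0.38 and 0.58 and were not called.

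The list of quinone, aldehyde and conjugation enzymes and efflux pumps had a median of -0.08, and besides *NQO1* its calls were lower. *ALDH1A3*, which makes retinoic acid from retinal, was at 51.3 and 31.02 in edited and 233.7 and 117.0 in wild-type cells (log2 fold change -2.02, SE 0.40, limma adjusted p = 0.0466). *ALDH3A1*, an aldehyde dehydrogenase of epithelia, fell in the fit over all rows, with a log2 fold change of -1.33 (limma adjusted p = 0.0444). The efflux pump *ABCC3* had a log2 fold change of 1.85 and did not pass (limma adjusted p = 0.124), and *ALDH3A2* was at -0.37. *NQO1* and *ALDH3A1* are also targets of the aryl hydrocarbon receptor, and in that list *TIPARP* fell, from 80.48 and 61.02 in wild-type to 27.12 and 30.64 in edited cells (log2 fold change -1.25, limma adjusted p = 0.0344). *AHR* itself and its partner *ARNT* were at -0.99 and -0.39 and were not called.

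Of 7 tested heme and iron genes 1 was called by limma (4 at an unadjusted p under 0.05). For this and the counts that follow, 7.09% of all tested genes were called and 32.3% were under that level. *BLVRB*, biliverdin reductase B, was at 79.35 and 71.41 in edited and 211.3 and 228.7 in wild-type cells (log2 fold change -1.53, SE 0.19, limma adjusted p = 0.0187). *BLVRA*, biliverdin reductase A, was at 66.93 and 67.82 against 88.35 and 69.3 and was not called (log2 fold change -0.21, limma adjusted p = 0.493). The ferritin genes *FTH1* and *FTL*, which are NRF2 targets, had log2 fold changes of 1.41 and 0.87 and missed the threshold (limma adjusted p = 0.103 and 0.0635). Among the remaining NRF2 targets 10 were tested and limma called 0 (4 at an unadjusted p under 0.05), with a median of -0.44, where *HTATIP2* and *PIR* were at -0.85 and 0.06. Among the other antioxidant enzymes 8 were tested and 0 called by limma (5 at an unadjusted p under 0.05), with *PARK7* at 0.88. Of the 2 such genes under the mean filter, *MSRB3*, a methionine sulfoxide reductase, rose (log2 fold change 1.50, limma adjusted p = 0.0444 over all rows), and *SELENOP*, a secreted selenium carrier, fell (log2 fold change -2.27, limma adjusted p = 0.0316).

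**Figure D4:**
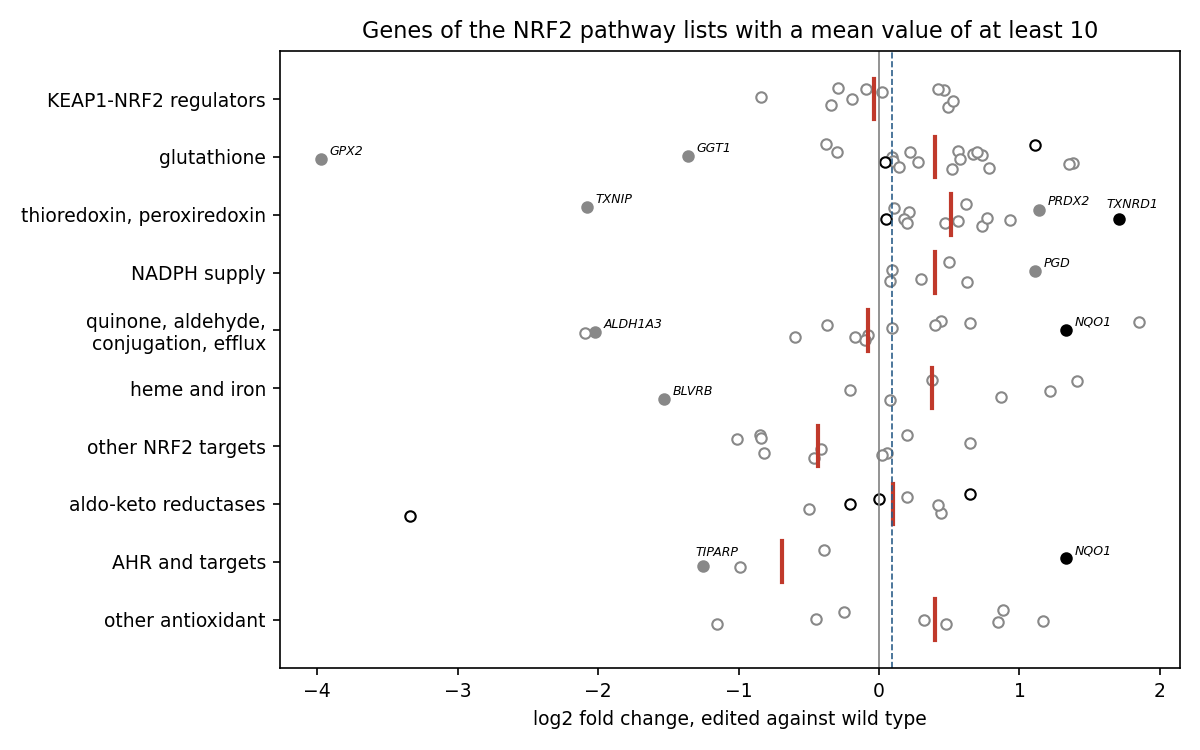
Log2 fold change in edited against wild-type cells of each tested gene in the 10 pathway lists, with black points for genes of the set, grey points for the others, filled and named points for an adjusted p under 0.05, red bars for list medians and a dashed line for the median of all tested genes. Medians run from -0.69 in the aryl hydrocarbon receptor list to 0.52 in the thioredoxin and peroxiredoxin list, and called genes lie on both sides of 0.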

How the data were processed

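Poly(A)-selected RNA from 2 wild-type and 2 edited MCF12A cultures was sequenced as single-end 75-base reads. The authors deposited 1 table of normalized expression signal per gene, not counts. The submitters' processing notes name HISAT2, Salmon and hg38, and the annotation and normalization are not given in the sources used here. Sequencing depth is therefore unknown. Steps in the values of snoRNA genes gave an estimate of relative depth of 0.93 to 1.12, resting on 12 to 15 genes a library that were whole multiples within 0.002.

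Groups were compared in R 4.3.3 by limma 3.58.1 (linear fit, then moderated statistics with a variance trend) on log2(value + 1), two-sided, in genes with a mean of at least 10, with Benjamini-Hochberg adjustment over all genes tested and a threshold of 0.05. Genes under that mean were read from the same fit over all 16811 rows. The mean is taken over both groups, so a gene can pass through a single group. *GPX2*, *AKR1B10*, *COL1A1* and the 4 general epithelial markers called lower did so. A fold change on this scale understates the change of low genes. Replicates are biological per the series text. P-values set the group difference against the spread between these libraries, moderated over all genes. Whether that spread includes differences between edited clones is unknown.

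The members and lists were chosen with earlier results of these data known. Named were the 10 genes, all regulators, in each other list the called genes (up to 4 in each direction) and up to 2 not called with the highest mean, the other aldo-keto reductases, tested neighbours of *AKR1C* and the markers. 1 gene was left out of the lists and is not reported here. *SLC7A11* and *BLVRA* were added after their values were seen. Older symbols were matched through RefSeq names (*TASOR2* as FAM208B, *FBH1* as FBXO18, *SELENOP* as SEPP1). Alternatives were other pseudocounts, mean filters, scalings, a replicate block and leaving out each library.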

Additional observations from a re-analysis of the deposited data

How the results depend on the processing

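The number of the 10 genes called was 2 as reported and 1 with no mean filter, with equal library totals, with quantile normalization or with cyclic loess normalization, where *TXNRD1* was the gene called. It was 0 with the replicate number as a block (4 at an unadjusted p under 0.05, limma), 0 at a threshold of 0.001, and 0 to 3 when 1 library was left out. Of the other listed genes 11 were called, 8 tested and 3 under the mean filter. The count was 2 with the replicate block, 0 at a threshold of 0.001 (48 at an unadjusted p under 0.05, limma) and 0 to 12 when 1 library was left out. The threshold of 0.001 is strict for these libraries: *CDH1* and *ESRP1*, both called lower, had a limma adjusted p of 0.00328 and did not pass it either. The labels do not say whether same-numbered libraries were handled together. Such libraries deviated from their group means with a correlation of -0.138 over the tested genes. With a single replicate difference in each group, this cannot decide whether the numbers pair the samples. A crossed pairing, added after seeing the data, called 3 of the 10 and 19 of the listed genes, and *AKR1B10* was then called (adjusted p = 0.0238). Over all tested genes, 680 calls became 133 with the block, 1002 with the crossed pairing, 47 without wild-type replicate 1, 4 without wild-type replicate 2, 424 without edited replicate 1 and 1431 without edited replicate 2.

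*TXNRD1*, *NQO1*, *GCLC* and *AKR1B10* kept their direction under each alternative run. *GCLM* became -0.08, -0.02 and -0.07, and *SRXN1* -0.07, -0.02 and -0.07, with equal totals, quantile and loess normalization. Equal totals moved the median of all tested genes from 0.09 to -0.03, and relative to it *TXNRD1* was at 1.62 and *NQO1* at 1.24 either way. *AKR1C2* was at 0.01 with a pseudocount of 5, and the fit of the summed *AKR1C* value gave 0.21, above the *AKR1C2* and *AKR1C3* values. Leaving out 1 library gave -0.01 to 1.30 for *AKR1C1*, -1.06 to 1.06 for *AKR1C2*, -0.70 to 0.28 for *AKR1C3*, -0.14 to 0.22 for *GCLM*, -0.11 to 0.20 for *SRXN1* and -0.34 to 0.74 for *HMOX1*, and 0.638 to 2.09 for the ratio of the summed *AKR1C* value. The cause of these changes was not tested.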
